A study of Mus musculus with 36 samples.

Results

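H3K9me3, the trimethylation of histone H3 on lysine 9, was mapped by chromatin immunoprecipitation sequencing (ChIP-seq) in mouse hippocampus, with 1 list of enriched intervals for each of 4 groups. The 4 lists were all those of this mark among 28 ChIP lists over 7 histone marks, in a series of 36 samples that also held 4 RNA samples and 4 whole cell extract samples. They held 345277 intervals in all, of which 209272 lay on the 19 autosomes. The series set CK-p25 mice, which express p25 on induction, against control littermates; p25 is the cleaved form of p35 that overactivates the kinase Cdk5 in degenerating neurons.

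The groups were hippocampus of CK mice, the control littermates, at 2 weeks, of CKp25 mice at 2 weeks, of CK mice at 6 weeks and of CKp25 mice at 6 weeks after p25 induction. All animals were female, and the labels give an age of 3 months for both times without saying whether it is that at induction or at collection. CKp25 mice are double transgenic. The labels do not describe the alleles of the controls. In the CK-p25 line as it is generally described, a CaMKIIα promoter restricts the induced transgene to forebrain excitatory neurons, while the chromatin assayed here came from all cells of the dissected tissue. Pooling of animals for a list is not stated, and the labels name more than 1 lot of the H3K9me3 antibody without tying a lot to a list. Each group gave 1 list, so no difference between H3K9me3 lists below has a replicate error or a test. A difference between times cannot be told apart from one of age or of batch.

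H3K9me3 is the mark of constitutive heterochromatin, the compact chromatin of satellite repeats, transposable elements and arrays of repeated genes such as those of zinc finger proteins and clustered protocadherins. It is written by the methyltransferases SUV39H1, SUV39H2 and SETDB1, the last brought to its targets by KRAB zinc finger proteins through the corepressor TRIM28 (KAP1), and it is bound by the HP1 proteins, which condense the chromatin. In neurons it helps to keep repeats and gene clusters silent, and in female cells 1 X chromosome is silenced as a whole, with H3K27me3, the Polycomb mark, and with H3K9me3 in parts of it.

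The number of H3K9me3 intervals was lower in CKp25 than in CK at 2 weeks and about equal at 6 weeks. On the autosomes CK held 54476 intervals and CKp25 41864 at 2 weeks, and CK held 53781 and CKp25 59151 at 6 weeks. The CKp25 list thus had 0.768 times as many intervals as CK at 2 weeks and 1.10 times at 6 weeks, while the control lists of 6 and 2 weeks stood at 0.987. The 2-week CKp25 list stood apart from the other 3, which lay within 1.10 times of one another. As density, the autosomes carried 22.0, 16.9, 21.8 and 23.9 intervals per Mb in CK and CKp25 at 2 weeks and CK and CKp25 at 6 weeks. The same order of groups holds wherever 4 values follow each other below.

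H3K9me3 intervals were short and covered little of the genome. Their median width was 291, 283, 314 and 301 bases, the widest spanned 7413, 7317, 7714 and 8133 bases, and they covered 20.5, 14.9, 21.6 and 23.0 Mb, or 0.830, 0.602, 0.872 and 0.930% of the autosomes. Covered length in CKp25 was 0.726 times that of CK at 2 weeks and 1.07 times at 6 weeks, with 1.05 between the control lists. Intervals of at least 1000 bases numbered 1492, 770, 1666 and 1829, which was 2.74, 1.84, 3.10 and 3.09% of a list. Wide intervals were therefore a smaller share of the 2-week CKp25 list than of the others, beyond its smaller total. The shortest interval was 204, 210, 220 and 210 bases, so the lower end of the widths differed slightly between lists as deposited.

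Strength was read from the authors' deposited values, the fold enrichment over the whole cell extract and the -log10 of the caller's p-value within each list. Their counts are set side by side below as a description of the lists as called. The median -log10 p was 5.11, 4.79, 4.86 and 4.97, and the median fold was 2.72, 2.63, 2.69 and 2.50. Intervals with a -log10 p of at least 5 numbered 27826, 16689, 25988 and 25090, or 51.1, 39.9, 48.3 and 42.4% of each list. Those of at least 10 numbered 2713, 1282, 2913 and 2911, and those of at least 20 numbered 168, 98, 179 and 213. The shortfall of the 2-week CKp25 list was thus present at every strength plotted and was wider among strong intervals, where 0.5998 times as many passed 5 as in CK. At 6 weeks the ratio was 0.965 at that strength, below 1 rather than above it, so the 6-week lists are described here as about equally long. These p-values move with sequencing depth, which is unknown for the ChIP libraries and their extracts, and the part of depth in the 2-week difference was not tested.

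**Figure D1:**
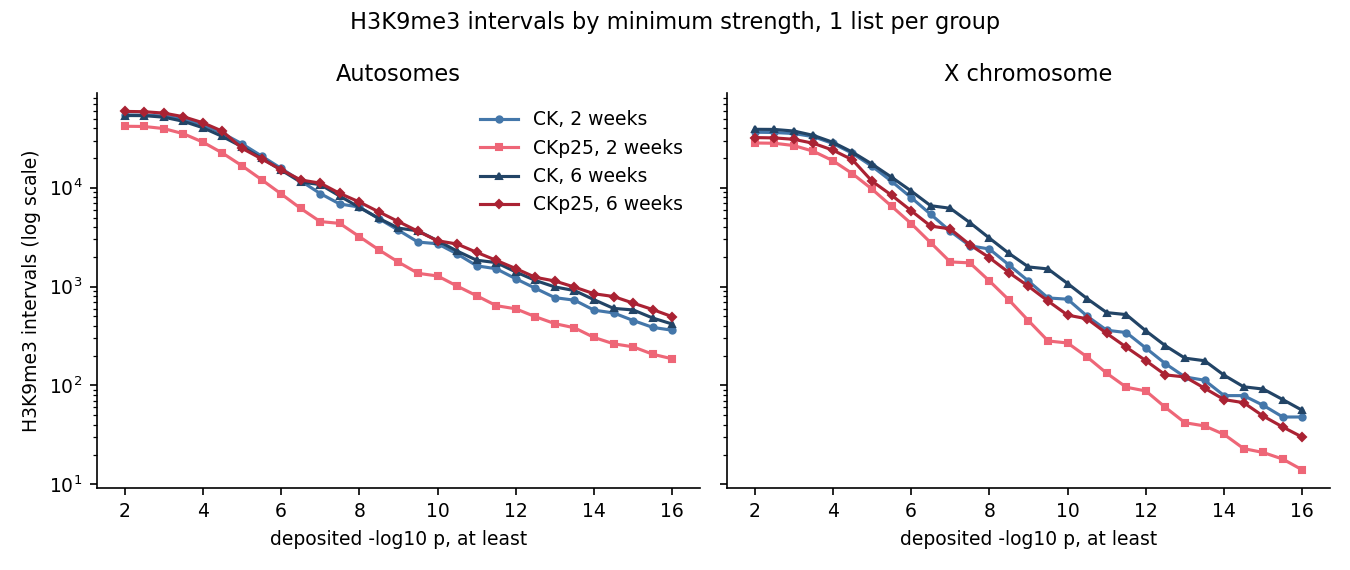
Number of H3K9me3 intervals (vertical axis, log scale) with at least a given deposited -log10 p (horizontal axis) on the autosomes (left) and the X chromosome (right), 1 line per list. The CKp25 list of 2 weeks lies lowest throughout on both, and the CKp25 list of 6 weeks lies near the control lists on the autosomes but below them on X at most strengths.

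Set beside the other marks, the 2-week ratio of autosomal interval number was 0.659 for H3K27me3, 0.883 for H4K20me1, 0.968 for the enhancer and promoter mark H3K27ac, 1.04 for the enhancer mark H3K4me1, 1.08 for the gene body mark H3K36me3 and 1.19 for the promoter mark H3K4me3. By number H3K27me3, the Polycomb mark, stood further below 1 than H3K9me3, but by covered length it stood at 0.765 against 0.726, and among intervals with a -log10 p of at least 5 at 0.951 against 0.5998. At 6 weeks the 6 ratios lay between 0.902 and 1.12. All lists of a group were called against the same whole cell extract, so the marks of a group are not independent of one another.

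The positions of the intervals were compared next, first by overlap. At 2 weeks 60.8% of CK intervals had no CKp25 interval sharing at least 1 base, and 47.7% of CKp25 intervals had no CK interval. At 6 weeks the shares were 48.5% of CK and 53.1% of CKp25 intervals. Between the control lists, 49.5% of the 2-week intervals had no 6-week match and 49.9% the other way. Counted as matched, the 2-week comparison gave 39.2% of CK (95% exact binomial interval 38.8 to 39.6%) and 52.3% of CKp25 intervals (51.8 to 52.8%), and the control comparison gave 50.5% (50.1 to 50.9%) and 50.1% (49.6 to 50.5%). These binomial ranges cover counting error only and treat the H3K9me3 intervals as independent, although most lay in clusters. They measure no spread between lists of a group. About as many intervals separated the 2 control lists as separated CKp25 from CK at 6 weeks, and only the CK list of 2 weeks had a clearly larger unmatched share, against the shortest list. In shared bases over the bases of both lists, the 3 comparisons gave 24.0, 27.8 and 27.9%.

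Lists of equal length removed most of that difference. Of the 5000 strongest CK intervals at 2 weeks, 41.9% overlapped one of the 5000 strongest of CKp25, and 45.1% of the latter overlapped back. At 6 weeks 44.3% overlapped in either direction, and between the control lists 44.8%. Ranked by the deposited fold in place of the p-value, 34.9% of the CK intervals overlapped at 2 weeks, 39.7% at 6 weeks and 39.8% between controls. The top lists of CKp25 and CK therefore shared about as much as those of the 2 control lists. The share of CK intervals found was lowest at 2 weeks under both rankings. The share of CKp25 intervals found by p-value was highest there among the 5000 strongest only. Among the 1000, 10000 and 20000 strongest it was 45.8, 44.98 and 44.0% at 2 weeks and 46.7, 45.16 and 45.9% at 6 weeks.

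How often an interval was found again depended mainly on its rank. Of the 1000 strongest intervals of a list, 94.0 to 98.9% overlapped some interval of any other list. Of the 4000 intervals that ranked next in CK at 2 weeks, 78.8% were found in CKp25 at 2 weeks, 87.0% in CK at 6 weeks and 87.9% in CKp25 at 6 weeks. Beyond rank 30000 the shares of that list fell to 25.3, 35.9 and 36.2%. The intervals of CK at 2 weeks were thus found in both 6-week lists at shares within 1 percentage point of each other in every band, and at a lower share in CKp25 at 2 weeks. Read from the other side, the intervals of CKp25 at 2 weeks were found at similar shares in CK at 2 weeks and in CK and CKp25 at 6 weeks, at 84.4, 83.6 and 85.6% for the 4000 after the strongest 1000, and 36.02, 36.8 and 38.3% beyond rank 30000.

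**Figure D2:**
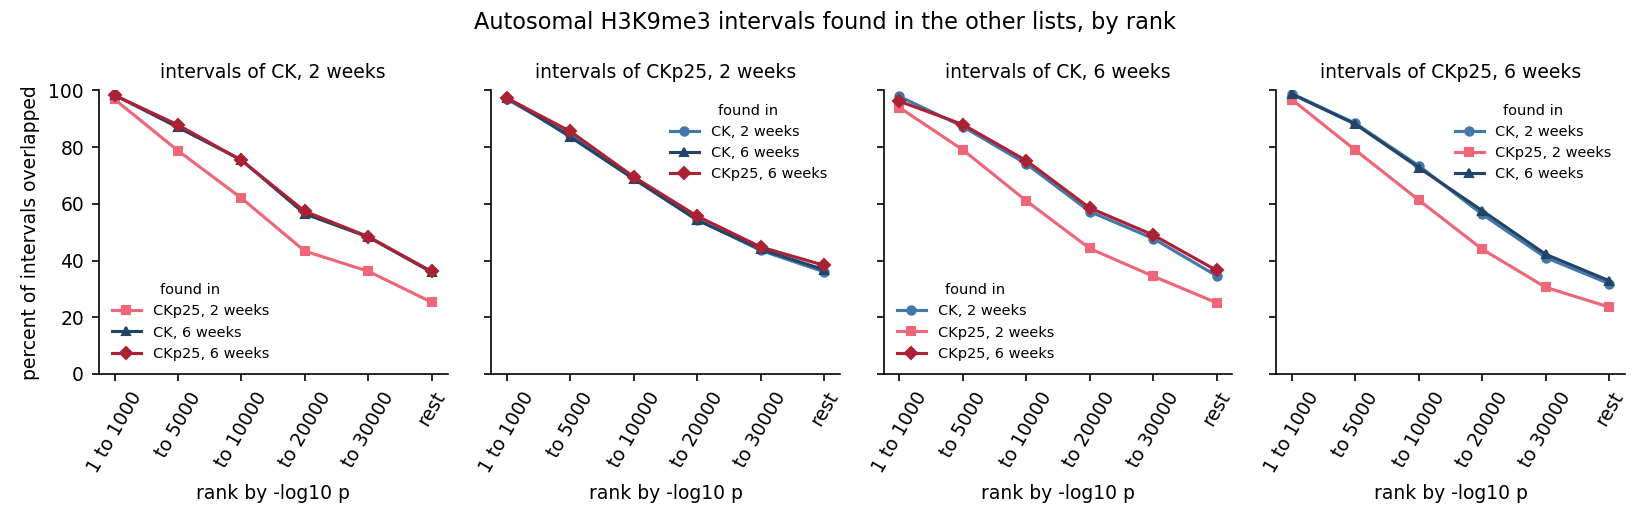
Percent of H3K9me3 intervals of each list (1 panel per list) that overlap an interval of each other list, by the rank of the interval within its own list. Between 94.0 and 98.9% of the 1000 strongest are found again, and the CKp25 list of 2 weeks holds fewer of the other lists' intervals at each lower rank.

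Matched intervals were wider and stronger than unmatched ones. In CK at 2 weeks the intervals found in CKp25 had a median width of 382 bases and 66.5% of them reached a -log10 p of 5, whereas those not found had a median width of 261 bases and 41.1% reached it. At 6 weeks the CK intervals found in CKp25 had a median width of 386 bases and the others 272. Between the control lists the widths were 360 and 254 bases for the 2-week intervals. Intervals not found again were therefore weaker and narrower at the median in all 3 comparisons, controls included. Many strong intervals were also not found again, and a wide interval overlaps others more easily.

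Merged over the 4 lists, the autosomal intervals formed 107757 regions. Of these, 63296 (58.7%) were in 1 list, 20044 in 2, 12055 in 3 and 12362 (11.5%) in all 4. Regions in all 4 lists had a median width of 912 bases and made up 28.5% of the bases of all regions. Regions in 1 list were split into 16034 of CK at 2 weeks, 10965 of CKp25 at 2 weeks, 15856 of CK at 6 weeks and 20441 of CKp25 at 6 weeks, with median widths of 241 to 260 bases. Regions merged from several lists are wider by construction, and a wide interval overlaps others more easily, so these widths describe the merged regions only.

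Most regions missing from CKp25 at 2 weeks were also missing at 6 weeks, in both genotypes. Of 29751 regions in CK but not in CKp25 at 2 weeks, 31.6% had an interval in CK at 6 weeks and 32.05% in CKp25 at 6 weeks. Of 19127 regions in both 2-week lists, 76.1 and 76.7% did. Of 23938 regions present in both control lists, 60.8% were present in CKp25 at 2 weeks and 73.4% at 6 weeks, and 4182 (17.5%) in neither. Split by time instead, 4651 of 24570 regions in both 6-week lists were in neither 2-week list. Of the 19127 regions in both 2-week lists, 2267 were in neither 6-week list. Regions in both CKp25 lists and neither CK list numbered 2474. Regions absent from CKp25 at 2 weeks thus recurred less than shared ones, at nearly the same share in CK and CKp25. Less of the mark and a lower depth at 2 weeks cannot be told apart with 1 list.

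Few strong regions divided the genotypes. Of 4227 regions among the 10000 strongest intervals of both control lists, 79 (1.87%) had no interval in either CKp25 list. Of 3895 regions among the 10000 strongest of both CKp25 lists, 39 (1.0%) had none in either CK list. Divided by time instead, 45 of 3934 regions strong in both 2-week lists (1.14%) had none in the 6-week lists, and 59 of 4145 (1.42%) the other way. Genotype and time therefore separated strong H3K9me3 regions to about the same small extent. In all 4 lists, 2153 regions were among the 10000 strongest and 254 among the 1000 strongest.

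The strongest region of the control list at 2 weeks lay at chr6:30904867-30913097 (mm9), 8231 bases wide. Its -log10 p was 68.2, 47.0, 70.5 and 57.3 and its fold 12.9, 9.46, 12.4 and 9.70, and it ranked 1, 2, 2 and 2. Peaks of H3K27me3 and of H3K4me3 overlapped it in every group. No gene is named at any position here, because no annotation of this build was used. The other 9 regions that ranked highest in all 4 lists had folds of only 2.10 to 3.04, with 5 of them within chr11:3000136-3100120, at the start of that chromosome's assembled sequence. Of the rest, chr17:39983962-39985870, chr17:39979855-39983894 and chr2:98503725-98504373 carried peaks of H3K27me3, H4K20me1, H3K4me1 and H3K4me3 in every group. These positions were thus enriched for marks that seldom coincide, and their high ranks rested on very small p-values with modest folds. The remaining one, chr4:3016513-3018578, carried no other mark but H3K27me3, and that in all groups except CK at 2 weeks.

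The strongest regions of both CK lists with no interval in CKp25 were chr9:3024484-3024963, with a -log10 p of 15.0 and 15.5 at 2 and 6 weeks, and chr10:57693830-57694228, with 12.2 and 13.4. The next were chr5:14952160-14952573, at 11.3 and 15.3, chr5:15052114-15052671, at 11.1 and 14.1, and chr17:3080794-3081025, at 10.9 and 19.1. None of these 5 overlapped a peak of the other 6 marks in any group. In the opposite direction stood chr8:19979748-19980010, with 9.72 and 12.5 in CKp25 at 2 and 6 weeks, and chr4:56856807-56857517, with 7.56 and 10.5. They were followed by chr2:173272187-173272890, at 8.17 and 9.17, chr13:62150226-62150649, at 7.56 and 9.17, and chr14:54438848-54439183, at 7.43 and 9.92. The region on chromosome 4 lay under peaks of H3K36me3 and H4K20me1 in every group, and the one on chromosome 8 under H3K36me3 in all but CK at 2 weeks. All 10 were at most 711 bases wide, and the best rank among them was 234.

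Across chromosomes the distribution of H3K9me3 was alike in all groups. Chromosomes 17, 7 and 13 were the densest autosomes in each list. Chromosome 17 carried 44.0, 31.6, 42.4 and 40.5 intervals per Mb, chromosome 7 carried 41.8, 29.3, 42.2 and 38.6, and chromosome 13 carried 26.5, 21.3, 26.4 and 29.3. Chromosome 14 or 15 was the sparsest in each list. At 2 weeks CKp25 had fewer intervals than CK on 19 of 19 autosomes, from 0.701 times as many on chromosome 7 to 0.855 times on chromosome 16. At 6 weeks it had fewer on chromosomes 7 (0.915) and 17 (0.956) and more on the other 17, up to 1.32 times on chromosome 15. Between the control lists the ratio ran from 0.925 on chromosome 1 to 1.09 on chromosome 19. Counting all intervals, the 2 autosomes that were lower in CKp25 at 6 weeks were thus the 2 densest ones. Among intervals with a -log10 p of at least 5 this did not hold. CKp25 at 6 weeks was then also lower on sparser autosomes, such as chromosome 19 (11.9 intervals per Mb in CK and 9.96 in CKp25). On others it was higher, such as chromosome 1 (6.63 in CK and 7.58 in CKp25). Density per Mb across the 19 autosomes correlated between the lists at r = 0.992 for 2 weeks, 0.986 for 6 weeks and 0.995 for the controls, values given as a description, since a chromosome has the same sequence content in every list. Along the autosomes, each cut into 10 equal stretches, the second stretch held 13.3, 12.6, 13.2 and 11.8% of intervals, the last 12.5, 12.9, 12.9 and 13.2%, and the fifth 8.14, 8.12, 8.34 and 8.53%.

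**Figure D3:**
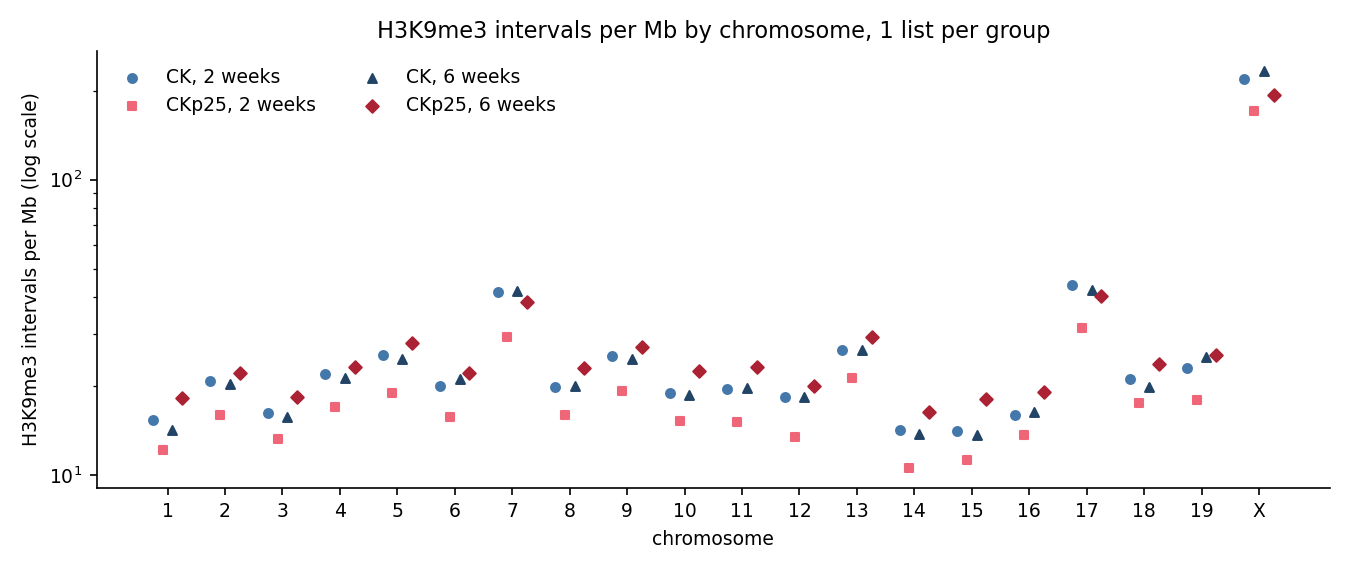
H3K9me3 intervals per Mb (vertical axis, log scale) on each autosome and X, 1 point per list. Chromosomes 17 and 7 stand above the other autosomes in all 4 lists, and X stands far above every autosome.

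The X chromosome carried a large share of all H3K9me3 intervals. It held 36450, 28362, 38999 and 32165 intervals, or 40.1, 40.4, 42.0 and 35.2% of those on autosomes and X, at 219, 170, 234 and 193 per Mb. That density was 10.9, 10.6, 11.7 and 8.37 times the median autosome. Covered bases made up 7.57, 5.66, 9.03 and 6.89% of the chromosome, and in 156, 153, 155 and 153 of its 167 bins of 1 Mb coverage exceeded the autosomal median. The enrichment thus ran along nearly the whole chromosome rather than in a few stretches. In CKp25 X had 0.778 times as many intervals as in CK at 2 weeks, close to the autosomal 0.768, and 0.825 times at 6 weeks, when the autosomes stood at 1.10. Between the control lists X stood at 1.07. Among intervals with a -log10 p of at least 5, X held 16496, 9681, 17350 and 11660. At 6 weeks CKp25 thus stood below CK on X at either strength, while the autosomal ratio lay near 1, at 1.10 or 0.965. On X, 35.7% of CK intervals were matched in CKp25 at 2 weeks and 46.4% the other way, 42.6 and 52.7% at 6 weeks, and 49.2 and 44.5% between the 2-week and 6-week controls, the shorter list being matched more often each time. Among the 70000 strongest intervals of each list, a cut chosen after the data were seen, X held 38.9, 40.4, 41.6 and 34.6%.

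H3K27me3 also favoured X, which held 26.9, 27.2, 25.5 and 22.8% of its intervals, the lowest share again in CKp25 at 6 weeks. For the other 5 marks X held 0.545 to 1.69%. Of the H3K9me3 intervals on X, 26.9, 20.9, 31.2 and 27.1% overlapped an H3K27me3 interval. The whole cell extract of a group is common to its lists, and its part in the lower X share of both repressive marks was not tested. The RNA of cell type markers differed between the genotypes as well, as given below, and the part of cell composition was not tested either.

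H3K9me3 intervals lay in clusters. With neighbours joined over gaps of at most 5000 bases, 62.4, 58.0, 61.6 and 59.5% of the autosomal intervals had a neighbour in their cluster. Clusters of 10 or more intervals numbered 445, 228, 462 and 333, and the median gap between neighbours was 7533, 11102, 7660 and 9687 bases. At this gap large clusters were therefore fewer in CKp25 at both times, although the 6-week CKp25 list was the longest of the 4. With the 40000 strongest intervals of each list, chosen after the data were seen to set lists of equal length side by side, such clusters numbered 239, 217, 274 and 181. At equal length the 2-week difference shrank from 0.512 to 0.908 times the control number, whereas at 6 weeks the ratio went from 0.721 to 0.661. The 6-week difference depended on the gap. Joined over at most 1000 bases, clusters of 10 or more at 6 weeks numbered 82 in CK and 88 in CKp25, and over the widest gap tried they numbered 600 and 581, a ratio of 0.968. At 2 weeks the ratio was 0.693 at the narrowest and 0.740 at the widest gap.

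The largest clusters of CK at 2 weeks were present in every list. The one with the most covered bases, chr18:37796894-37934691, had 104, 85.5, 98.5 and 101 kb of H3K9me3. It was followed by chr11:3000136-3100120, with 75.1, 73.4, 74.6 and 68.3 kb, and by chr4:146764020-146874120, with 61.8, 48.2, 55.7 and 50.9 kb. The fourth and the fifth, chr18:37023900-37140779 and chr18:37387715-37522545, had 56.3, 41.8, 45.5 and 43.0 kb and 54.99, 33.9, 55.03 and 39.9 kb. All 5 were lower in CKp25 than in CK at 2 weeks and 4 of 5 at 6 weeks, the exception being the first. The first, the fourth and the fifth lay in the same 1 Mb stretch, chr18:37000001-38000000, so the 5 are not separate observations. Among the 24 densest bins of 1 Mb, ordered by a list outside the comparison, 24 were lower in CKp25 at 2 weeks and 19 at 6 weeks. CK at 2 weeks chose these clusters, so the 2-week comparison is not free of that choice, whereas the 6-week lists played no part in it.

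In bins of 1 Mb, H3K9me3 was concentrated in few places. Of 2482 autosomal bins, 346, 346, 314 and 431 held 50% of the covered bases, and the 25 densest held 14.3, 13.8, 13.8 and 11.1%. The 6-week CKp25 list was thus the least concentrated by both measures. At equal list length the numbers were 323, 341, 292 and 392 bins. Coverage of bins correlated between lists at r = 0.981 for 2 weeks, 0.958 for 6 weeks and 0.984 for the controls, again as a description.

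By mean coverage the densest bin was chr18:37000001-38000000, with 36.0, 25.9, 33.4 and 30.3% of its bases covered. The next were chr17:22000001-23000000, at 22.1, 15.6, 19.6 and 21.8%, chr4:146000001-147000000, at 16.2, 12.7, 14.4 and 13.9%, chr10:81000001-82000000, at 14.2, 11.5, 13.3 and 15.0%, and chr7:13000001-14000000, at 13.2, 10.5, 14.6 and 12.9%. In each of these 5 bins CKp25 was the lower list at 2 weeks, and at 6 weeks it was lower in 3 of them. The bins that fell most from CK to CKp25 at both times were chr17:38000001-39000000, at 10.7, 4.97, 11.3 and 6.06%, chr9:19000001-20000000, at 9.99, 5.76, 10.8 and 6.63%, and chr7:55000001-56000000, at 9.93, 5.38, 11.9 and 7.96%. These 3 were chosen by the smaller of their falls at the 2 times, so CK above CKp25 at each time restates that choice. H3K36me3 covered at most 1.53% of them in any group. The bins that rose most were sparse, namely chr1:185000001-186000000, at 0.519, 0.782, 0.748 and 1.26%, chr16:16000001-17000000, at 1.03, 1.25, 1.24 and 1.92%, and chr18:32000001-33000000, at 0.362, 0.568, 0.584 and 0.861%. Over all bins, coverage was lower in CKp25 in 2058 and higher in 342 at 2 weeks, and lower in 688 and higher in 1717 at 6 weeks. In 589 bins it was lower at both times and in 246 higher at both. These joint counts were not set against what the single-time counts alone would give, and are no measure of consistency between times.

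The 6-week lists differed by density of the bin. Bins were ordered by their coverage in a list outside each comparison (CK at 2 weeks for the 6-week pair, CK at 6 weeks for the 2-week pair, CKp25 at 2 weeks for the controls), a division chosen after the data were seen. At 6 weeks CKp25 covered 1.26 times the bases of CK in the 1241 sparsest bins, and the ratio fell through 1.23, 1.14 and 1.04 in denser classes to 0.823 in the 100 bins below the densest 24 and 0.845 in those 24. In those 2 densest classes 78 of 100 and 19 of 24 bins were lower in CKp25, against 319 of 1241 in the sparsest class. At 2 weeks the ratios were 0.715, 0.732, 0.752, 0.770, 0.712 and 0.685, and between the control lists 0.965, 1.03, 1.08, 1.14, 1.12 and 1.01. With all intervals counted, the 2-week list was thus lower by a similar factor in sparse and dense bins. The 6-week list was higher in sparse and lower in dense ones.

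Taken as the ratio in the densest 5% of bins over that in the sparsest 1241, the 6-week comparison gave 0.660, the 2-week comparison 0.980 and the controls 1.11. With intervals of a -log10 p of at least 5 the 6-week value was 0.723, with the 40000 strongest intervals of each list 0.688, and with the bins ordered by CKp25 at 2 weeks 0.664. The 2-week value was 1.15 and 0.914 with the first 2 of these settings, on either side of 1. With the bins ordered by CKp25 at 6 weeks it was 0.980. For the other 6 marks, each ordered by its own lists, the 6-week value lay between 0.939 and 1.05, the 2-week value between 0.958 and 1.23 and the control value between 0.903 and 1.04. None of the 20 other values came near the 0.660 of H3K9me3 at 6 weeks. With 1 list per group this difference between marks was not tested.

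**Figure D4:**
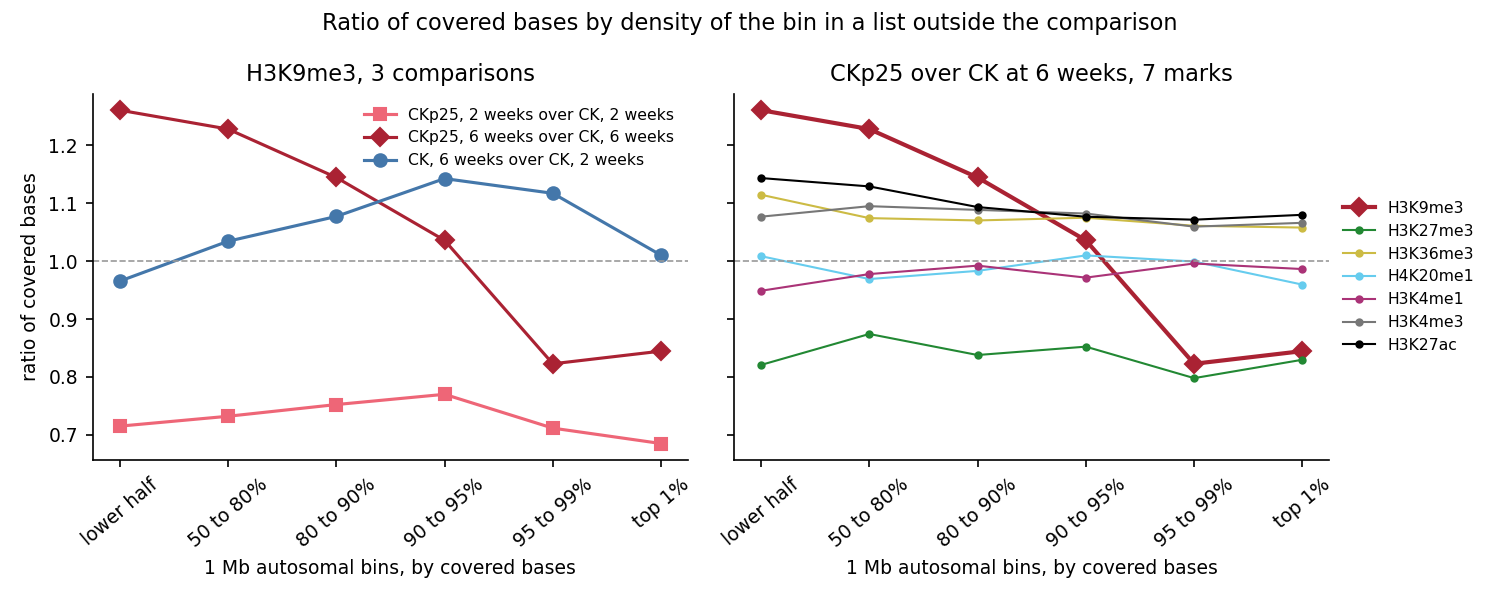
Ratio of covered bases (vertical axis) by class of 1 Mb bins, from the 1241 sparsest bins to the 24 densest (horizontal axis, left to right), for H3K9me3 in 3 comparisons (left) and for CKp25 over CK at 6 weeks in 7 marks (right). The 6-week line of H3K9me3 falls from 1.26 to 0.845 while the lines of the other marks stay nearly level.

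Among the densest 10% of bins the 6-week difference varied with the other marks. Where H3K36me3 covered more than its median over these bins, CKp25 had 0.988 times the H3K9me3 bases of CK, and elsewhere 0.802 times. Where H3K27me3 was above its median the ratio was 1.03, and elsewhere 0.818. At 2 weeks the same divisions gave 0.758 and 0.686 for H3K36me3 and 0.780 and 0.690 for H3K27me3, and between the controls they gave 1.09 and 1.09, and 1.14 and 1.07. The bins with less of either mark were also the denser ones in H3K9me3, with 5.49 against 4.19 Mb in CK at 6 weeks for the H3K36me3 division and 6.77 against 2.91 Mb for the H3K27me3 division. The marks and the density of the bin cannot be told apart here, and both marks were not divided jointly.

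Within its own intervals H3K9me3 coincided with H3K27me3 more than with the active marks. H3K27me3 overlapped 6.10, 5.47, 7.82 and 6.46% of the intervals, and covered 3.71, 4.65, 3.73 and 3.75 times as much of their bases as of the autosomes. H3K36me3 overlapped 3.84, 4.53, 3.67 and 5.08%, at 0.614, 0.665, 0.602 and 0.791 times its autosomal coverage. The corresponding ratios were 0.291, 0.281, 0.270 and 0.415 for H4K20me1, 0.0906, 0.0985, 0.113 and 0.177 for H3K4me1, 0.285, 0.247, 0.312 and 0.335 for H3K4me3, and 0.121, 0.103, 0.139 and 0.200 for H3K27ac. H3K9me3 thus lay over Polycomb chromatin more, and over each of the other marks less, than the autosomes as a whole in all 4 groups. For each mark but H3K27me3 the highest of the 4 ratios was that of CKp25 at 6 weeks.

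The 5000 strongest intervals, with median widths of 636, 522, 658 and 684.5 bases, lay under H3K36me3, H3K27me3, H3K4me1 and H3K4me3 to a greater extent than the whole list in all 4 groups. H3K36me3 covered 1.40, 1.39, 1.36 and 1.78 times as much of their bases as of the autosomes, above 1 where all intervals lay below it, and H3K27me3 covered 5.77, 7.25, 5.55 and 5.48 times as much. H3K9me3 together with H3K36me3 is known from the bodies of zinc finger genes.

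RNA of the genes that write, read, remove and anchor H3K9 methylation was measured in 12 libraries of the same groups, 3 per group, with 5029996 to 6450140 gene counts each. Whether each library is a separate animal is not stated, and p-values then cover only the spread of these libraries, possibly a technical one. At 2 weeks the libraries CK_2wk_4520 and CKp25_2wk_4518 stood apart, with multiply aligned reads at 7.15 and 6.81% where the other 4 had 12.2 to 14.3%. At 6 weeks this share was 6.86 to 9.52% in CK and 11.5 to 13.9% in CKp25. The 6-week groups did not overlap in it, so whatever moved this share cannot be told apart from genotype in the 6-week RNA. In CPM, counts scaled to the size of the library, markers of hippocampal excitatory neurons summed to 2750 to 2974 in CK and 1849 to 2119 in CKp25 at 2 weeks, and 2444 to 2896 and 1218 to 1637 at 6 weeks. Of 8 such markers, 6 fell at 2 weeks and 8 at 6 weeks, and of 8 microglia markers all 8 rose at both times, from a summed 232 to 251 to 834 to 1081 CPM at 2 weeks and from 216 to 244 to 974 to 1289 at 6 weeks. Of the other fixed markers, 5 of 6 of all neurons fell at 2 weeks and 6 of 6 at 6 weeks, 4 and 6 of 6 of astrocytes rose, 0 and 6 of 6 of oligodendrocytes rose, 0 and 5 of 5 of endothelium rose, and 0 of choroid plexus were called at either time, where their sum ran from 14.0 to 2379 CPM. Marker counts are those called by edgeR's quasi-likelihood test at an adjusted p of 0.05. By that test 11.6% of all genes were higher and 7.99% lower at 2 weeks, and 18.1 and 15.2% at 6 weeks. The part of the marker shifts in the H3K9me3 lists was not tested. In bulk tissue, fewer cells of a type and less RNA per cell cannot be told apart.

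Over 43 heterochromatin genes in 5 lists, 9 rose and 1 fell at 2 weeks, and 5 rose and 3 fell at 6 weeks, by edgeR's quasi-likelihood test at an adjusted p of 0.05. Over all 14457 genes tested 1678 (11.6%) were higher and 1155 (7.99%) lower at 2 weeks, and 2614 (18.1%) and 2197 (15.2%) at 6 weeks. The heterochromatin genes were called in 20.9% and 2.33% of cases at 2 weeks and in 11.6% and 6.98% at 6 weeks, with median log2 fold changes of 0.06 and -0.02, beside medians of -0.01 and 0.00 over all genes. Most genes of the H3K9me3 machinery thus did not pass the test at either time. By list, 2 of 8 methyltransferases and partners rose and 1 fell at 2 weeks, and 1 rose and 1 fell at 6 weeks. Of 10 repressors of the KAP1 and HUSH kind, 3 and then 2 rose, and 0 and then 1 fell. Of 7 HP1 genes and other readers 1 rose at each time, of 11 demethylases 0 and then 1 fell, and of 7 lamina genes 3 and then 1 rose. Without the 2 libraries that stood apart, a fit added after the data were seen, 8 rose and 2 fell at 2 weeks, and 5 rose and 4 fell at 6 weeks.

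Of 7 central writers, corepressors and readers of H3K9me3, Suv39h1 passed the test at 2 weeks and none at 6 weeks. Setdb1, the main methyltransferase of euchromatic H3K9me3 and of repeats, was at 62.7, 55.8 and 55.7 CPM in CK and 59.9, 53.8 and 60.8 CPM in CKp25 at 2 weeks, and at 57.2, 60.3 and 54.0 and 58.8, 59.3 and 50.4 CPM at 6 weeks. The groups overlapped at both times, with log2 fold changes of 0.00 ± 0.09 and -0.02 ± 0.09 (SE). Suv39h1, a methyltransferase of pericentromeric heterochromatin, rose at 2 weeks from 17.6, 16.98 and 18.1 to 21.7, 21.9 and 23.7 CPM (log2 fold change 0.35, adjusted p = 0.03 by edgeR), a call that was lost with DESeq2 and without any of CK_2wk_4520, CK_2wk_4891, CK_2wk_4893, CKp25_2wk_4890 and CKp25_2wk_4894, at 0.32 to 0.37, or without both that stood apart, at 0.38. At 6 weeks its log2 fold change was 0.21 (adjusted p = 0.175 by edgeR). The values of its paralog Suv39h2 were 0.24 and -0.37, of the corepressor Trim28 0.17 and -0.06, and of the HP1 genes Cbx1, Cbx3 and Cbx5 0.28, 0.15 and 0.06 at 2 weeks and -0.01, 0.14 and -0.03 at 6 weeks. None of these 5 passed the test.

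Uhrf1, which reads H3K9 methylation at replicating DNA, showed the highest fold change of the lists. It was at 0.503, 0.614 and 0.203 CPM in CK and 19.97, 24.5 and 32.0 CPM in CKp25 at 2 weeks, and at 0.407, 0.607 and 0.873 and 7.40, 4.67 and 3.64 CPM at 6 weeks. The groups were far apart at both times, at log2 fold changes of 5.77 (adjusted p = 6.06e-09) and 2.97 (adjusted p = 4.84e-05 by edgeR), which rest on few counts in CK. Hells, a chromatin remodeler of the same replicating heterochromatin, rose from 4.27 ± 0.731 to 33.8 ± 6.94 CPM at 2 weeks and from 4.91 ± 0.862 to 14.9 ± 1.97 CPM at 6 weeks (SD, n = 3). Both genes are known to be highest in dividing cells, and 5 of 5 tested markers of dividing cells rose at both times, from a summed 4.09 to 5.28 to 173 to 308 CPM at 2 weeks and from 4.19 to 5.66 to 40.6 to 58.6 CPM at 6 weeks. The part of dividing cells in the rise of Uhrf1 and Hells was not tested.

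Ehmt2, which encodes the H3K9 mono- and dimethyltransferase G9a, fell from 141, 145 and 146 to 127, 121 and 123 CPM at 2 weeks and from 142, 141 and 143 to 111, 118 and 116 CPM at 6 weeks. The groups did not overlap at either time, and the log2 fold changes were -0.22 (adjusted p = 0.0162) and -0.30 (adjusted p = 0.000932 by edgeR). Its 2-week call was lost without CK_2wk_4891, CK_2wk_4893, CKp25_2wk_4890 or CKp25_2wk_4894, at -0.20 to -0.22. Setdb2, a relative of Setdb1, rose from 5.91 ± 1.53 to 10.8 ± 0.890 CPM at 2 weeks (log2 fold change 0.85) and from 6.22 ± 1.23 to 9.53 ± 0.426 CPM at 6 weeks (SD, n = 3), and its 6-week call was lost with DESeq2 and without any of CK_6wk_3936, CK_6wk_3938, CKp25_6wk_3937, CKp25_6wk_3940 and CKp25_6wk_4008, at 0.47 to 0.62.

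Among repressors of heterochromatin, Morc3, an ATPase that binds silenced repeats, rose at both times (log2 fold changes 0.54 and 0.40, adjusted p = 0.0022 and 0.0128 by edgeR). Daxx, the chaperone that deposits histone H3.3 with ATRX, rose at 2 weeks (0.66, adjusted p = 0.00314) and stood at -0.04 at 6 weeks (adjusted p = 0.857). The difference of its effect between the times did not pass the test (adjusted p = 0.119 by edgeR). Atrx itself stood at -0.03 at 2 weeks and fell at 6 weeks (-0.23, adjusted p = 0.0297 by edgeR), a call lost without CK_6wk_3938, CK_6wk_4009, CKp25_6wk_3937, CKp25_6wk_3940 or CKp25_6wk_4008, at -0.17 to -0.25. Of 11 demethylases of H3K9 only Kdm7a, which acts on dimethylated lysine, was called, and it fell at 6 weeks (-0.47, adjusted p = 0.00423) from 148, 170 and 121 to 102, 111 and 103 CPM. Among lamina genes, which tether heterochromatin to the nuclear edge, Tmpo rose at both times (0.99 and 0.66), and Lmnb1 (1.01) and Lbr (0.48) rose at 2 weeks. The call of Lmnb1 was lost without CK_2wk_4891 or CKp25_2wk_4894 (0.84 and 0.81), and that of Lbr without CK_2wk_4891 or CKp25_2wk_4890 (0.43 and 0.42) and with DESeq2 (0.49). No heterochromatin gene was called for a difference of the CKp25 effect between times by edgeR, against 80 of all genes (0.553%), with 4 at an unadjusted p under 0.05 and 2 called by DESeq2.

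**Figure D5:**
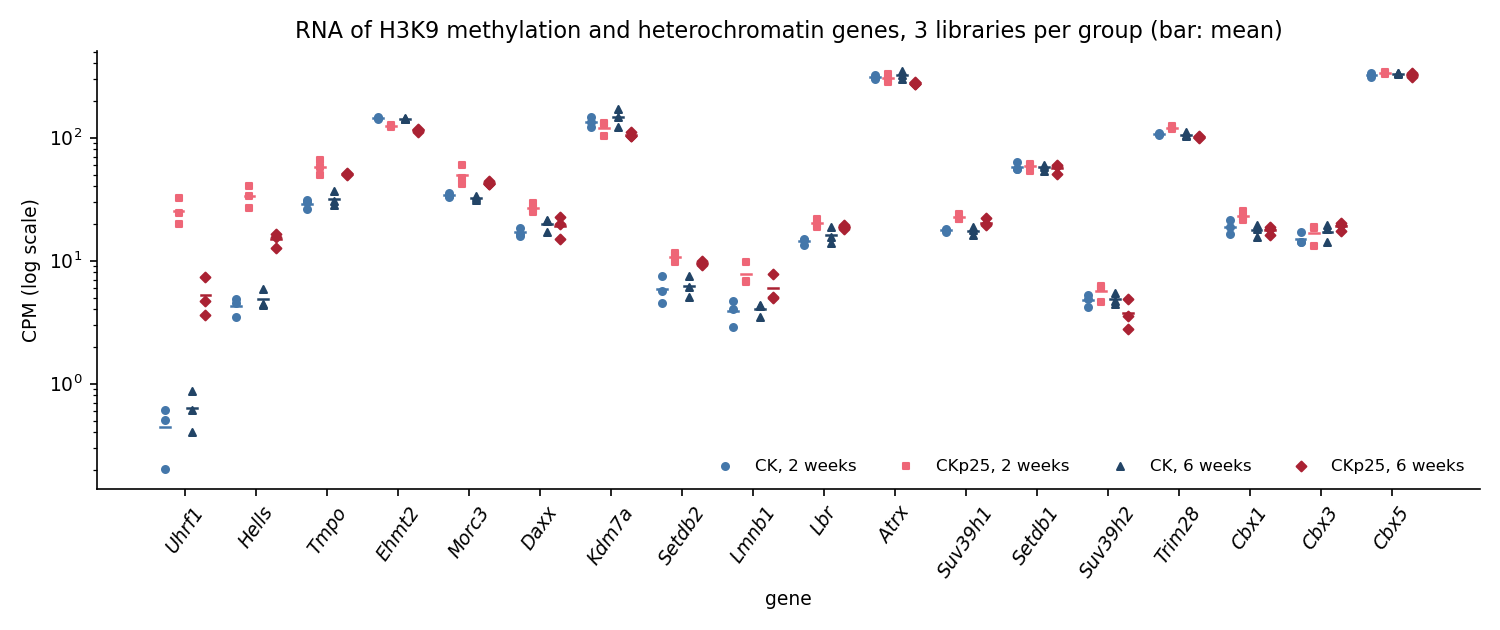
CPM (vertical axis, log scale) of 18 genes of H3K9 methylation and heterochromatin, 1 point per library and a bar at the mean of 3 libraries, by group. Uhrf1 and Hells stand far above CK in CKp25, while Setdb1, Cbx1, Cbx3 and Cbx5 overlap between the groups at both times.

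Zinc finger genes were counted as a group, since many of their proteins direct H3K9me3 and many of their bodies carry it. Of 344 tested genes whose symbols begin with Zfp, 11 rose and 7 fell at 2 weeks (3.20 and 2.03%) and 14 rose and 29 fell at 6 weeks (4.07 and 8.43%), below the shares over all genes in each case. Their median log2 fold changes were -0.00 and -0.04. Among those called at both times the highest were Zfp367 (1.83 and 1.01), Zfp217 (1.41 and 1.27) and Zfp36 (1.25 and 1.41), of which Zfp36 encodes an RNA-binding protein of another zinc finger class. The lowest were Zfp239 (-0.58 and -0.54), Zfp971 (-0.47 and -0.42) and Zfp827 (-0.30 and -0.32). Without annotation of the build, no H3K9me3 interval was assigned to these genes.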

How the data were processed

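H3K9me3 and 6 other marks were each assayed in 1 ChIP sample per group. Per the labels' protocols, tissue was fixed with 1% formaldehyde, sonicated to 200 to 500 bases and sequenced in single reads of 36 bases. The submitters' processing notes name Bowtie, Picard, HTSeq 0.6.1, MACS2 and the builds NCBIM37 and mm9. Each list was deposited with a fold (ratio) over the whole cell extract of its group and a -log10 p, all above 2, both the authors' values. ChIP depth is unknown. Read counts per gene were deposited by the authors for 12 RNA libraries, and 5 entries that name no gene were left out. Whether counting used strand is not stated, so genes and antisense partners may share reads.

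Intervals were compared in Python 3.11.15 (pandas 2.3.3), on autosomes, with an overlap of 1 base. Chromosome lengths were the highest peak ends over all 28 lists. No intervals within a list shared bases. The interval code was tested on simulated data. Counts were fitted with edgeR 4.0.16 in R 4.3.3: 14457 of 37991 genes passed filterByExpr, TMM factors were used, all 12 libraries entered with 4 group means, and p-values were adjusted over all genes by Benjamini-Hochberg. CPM are TMM-scaled, and DESeq2 1.42.0 was an alternative. The 32919 names came from the supplied ID and symbol table, and Tasor from a RefSeq synonym. No library was a copy of another.

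Regions named were the 10 strongest in all lists by worst rank, the 5 strongest of both CK lists absent from CKp25 and the reverse, the 5 largest clusters of CK at 2 weeks, and the 5 densest, 3 most falling and 3 most rising bins. Genes named were the heterochromatin genes called at either time, 7 central ones whatever their p, and the 3 highest and 3 lowest Zfp genes called at both times. Members and lists were chosen with earlier results of these data known. No sequence is printed, because no mm9 genome was used.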

Additional observations from a re-analysis of the deposited data

How the results depend on the processing

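Among results without a test, the 6-week ratios changed side: interval number became 0.965 at a -log10 p of at least 5 and 0.984 with all chromosomes, covered length 0.985 and 0.941, and clusters of 10 or more 1.07 with gaps of at most 1000 bases. The 2-week ratio of such clusters became 0.908 with the 40000 strongest intervals. The 2-week value of the densest 5% of bins over the sparsest 1241 went from 0.980 to 1.15 at a -log10 p of at least 5. Matched shares moved with an overlap of 50% of the shorter interval to 32.2 and 43.6% (CK and CKp25, 2 weeks), 44.2 and 40.04% (6 weeks) and 42.4 and 42.4% (controls). At a -log10 p of at least 5 they were 31.2 and 53.1% (2 weeks), 45.4% of CK (6 weeks) and 45.4 and 47.8% (controls). By fold, top lists shared 34.9, 39.7 and 39.8%. Shares in clusters became 45.5, 40.1, 43.4 and 41.6% with gaps of at most 1000 bases and 72.8, 68.7, 72.8 and 72.0% with the widest gap. With 50% of the H3K9me3 interval covered, H3K36me3 lay at 3.16, 3.74, 2.99 and 4.07% and H3K27me3 at 4.56, 4.33, 5.96 and 4.99%, and with the other mark at a -log10 p of at least 5 at 3.13, 3.51, 2.87 and 3.90% and 3.90, 4.02, 5.39 and 4.62%. Stricter limits admit fewer intervals by construction.

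For the RNA, leaving out single libraries gave 476 to 1302 lower genes at 2 weeks (646 without CK_2wk_4891, 621 without CK_2wk_4893, 476 without CKp25_2wk_4894). Heterochromatin genes called lower numbered 0 to 3 at 2 weeks (0 without CK_2wk_4891, CK_2wk_4893, CKp25_2wk_4890 or CKp25_2wk_4894, 3 without CK_2wk_4520), and 2 without both libraries that stood apart, and 2 to 5 at 6 weeks (5 without CK_6wk_4009). Fold changes near 0 changed sign: Setdb1 at -0.035 to 0.060 (2 weeks, -0.0073 without the filter) and -0.076 to 0.047 (6 weeks), Cbx1 at -0.090 to 0.064 and Daxx at -0.17 to 0.10 (6 weeks), and Atrx at -0.090 to 0.0091 (2 weeks). The cause was not tested. With no filter, Ehmt2 (-0.23) and Suv39h1 (0.34) at 2 weeks were not called. DESeq2 size factors in edgeR changed none of the 36 gene results. No paired analysis was possible because the groups share no library number. The planned limit on q was not run, since the lists give no q. ChIP depth and 1 list per group limit every H3K9me3 comparison.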
